A study of Mus musculus with 7 samples.

Results

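The alpha-defensin family was examined in Paneth cells (PCs) sorted from the small intestine of C57BL/6J mice. The members were all genes of the count table whose mouse symbol is Defa or Defa-ps followed by a number, which gave 45 of 55414 genes: 28 annotated as coding and 17 as pseudogenes. Mice had received an injection of tumour necrosis factor (TNF, 4 mice) or of phosphate-buffered saline (PBS, 3 mice), the intestine was taken 15 h later, and every library stands for another mouse. Neither the dose, sex and age of the mice nor the sorting gate and the stretch of intestine is stated in the labels. RNA was read single-end on an Element AVITI, and the libraries held between 15511455 and 19193721 counts.

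Alpha-defensins, called cryptdins in the mouse, are small cationic antimicrobial peptides (AMPs) that PCs store in granules and release into the crypt lumen. They are made as precursors, from which the metalloproteinase Mmp7 releases the active peptide, and the active peptide is held together by disulfide bonds between its cysteines. Wnt signalling, through TCF/LEF factors, is known to drive their transcription. The genes arose by repeated duplication, so many copies are nearly identical.

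All 45 members lie on chromosome 8. In the GENCODE M39 annotation of GRCm39, 41 of them form a cluster of 724 kb, from Defa21 (chr8:21515557-21516533) at one end to Defa-ps11 at the other. The other 4, Defa-ps12 to Defa-ps15, lie 1991 kb before it and had 0 counts in every library. In the annotation, 38 members are on the plus strand and 7 on the minus strand.

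The coding members fell into a few sequence types, which are shown because they differ in cysteine spacing and the members are described by them. Clades were formed from the coding sequences by average linkage at a distance of 15%, after the values were known. The stretch from the first to the last cysteine codon of the mature part is printed for 9 members, 5′ to 3′, from the GRCm39 transcripts. Capitals mark the cysteine codons.

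Defa24: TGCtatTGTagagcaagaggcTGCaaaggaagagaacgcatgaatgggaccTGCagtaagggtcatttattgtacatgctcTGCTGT
Defa30: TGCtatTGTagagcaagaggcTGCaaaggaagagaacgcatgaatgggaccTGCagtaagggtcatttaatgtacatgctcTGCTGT
Defa28: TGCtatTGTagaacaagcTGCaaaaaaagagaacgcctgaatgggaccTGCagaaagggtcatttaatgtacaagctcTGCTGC
Defa21: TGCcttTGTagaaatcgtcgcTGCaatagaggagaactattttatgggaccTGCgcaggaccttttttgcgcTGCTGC
Defa22: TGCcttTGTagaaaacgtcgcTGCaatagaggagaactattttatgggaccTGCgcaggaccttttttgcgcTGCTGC
Defa35: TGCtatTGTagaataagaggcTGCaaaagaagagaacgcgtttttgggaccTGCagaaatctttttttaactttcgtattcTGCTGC
Defa41: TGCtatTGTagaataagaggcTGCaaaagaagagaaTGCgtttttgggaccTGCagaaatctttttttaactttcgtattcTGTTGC
Defa38: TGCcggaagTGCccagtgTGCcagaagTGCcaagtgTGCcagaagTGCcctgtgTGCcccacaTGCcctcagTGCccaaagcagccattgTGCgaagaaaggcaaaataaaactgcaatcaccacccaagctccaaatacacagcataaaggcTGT
Defa39: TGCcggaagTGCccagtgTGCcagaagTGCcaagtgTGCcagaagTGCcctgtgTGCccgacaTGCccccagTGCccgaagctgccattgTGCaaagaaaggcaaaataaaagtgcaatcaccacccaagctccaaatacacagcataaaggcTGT

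Defa24 and Defa30 stand for a clade of 10 members (Defa3, Defa17, Defa23 to Defa26, Defa28, Defa30, Defa31 and Defa40), most of which have 6 cysteine codons with 9 codons between the fourth and the fifth. Defa28, of the same clade, has 3 in place of 4 codons before the cysteine codon that follows its second. Defa21 and Defa22 belong to a short-loop clade of 6 members (with Defa2, Defa20, Defa32 and Defa33), in which only 6 codons lie between the fourth and the fifth cysteine codon. Defa35 and Defa41 stand for another clade of 6 members (with Defa5, Defa34, Defa36 and Defa37). The printed stretch of Defa35 is shared by Defa5, Defa34, Defa36 and Defa37 without a difference, whereas Defa41 differs from it at 2 of 29 codons and has 7 cysteine codons. Defa38 and Defa39 stand for 5 members (with Defa29, Defa42 and Defa43) of 116 codons with 11 cysteine codons, most of them 2 codons apart, here called CRS1C-like after the cryptdin-related sequence peptides. All 5 are on the minus strand. Defa27, of 66 codons, was placed in no clade. Gaps counted as differences, so its shorter sequence limits its identity to the others. Its highest identity was 70.7%, with Defa25 of the Defa24 clade.

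Within clades, the coding sequences had a median identity of 91.8% in the Defa24 clade, 98.6% in the Defa35 clade, 89.8% in the short-loop clade and 96.6% among the CRS1C-like members. Between clades the median ran from 62.0% (CRS1C-like against Defa35 clade) to 84.2% (Defa24 clade against Defa35 clade), Defa27 left aside. The CRS1C-like sequences are longer than those of the other clades, which lowers these values for them. Defa21 and Defa22 were 99.3% identical and differed at 1 of the 26 printed codons. Defa24 and Defa30 also differed at 1 of 29 codons.

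Such likeness bears on the counts. Of the 75-base windows of each gene, the share that also occurs elsewhere, at another place of the genome or in a transcript of a gene that does not overlap it, was 10.6% for Defa24, 10.3% for Defa39, 20.7% for Defa30, 30.2% for Defa38, 42.1% for Defa21 and 49.3% for Defa22. It was 97.7% for Defa5, 93.4% for Defa3 and 80.6% for Defa17. Of 45 members, 15 had at least 80% of their windows elsewhere, and 9 of those had under 100 counts in all libraries together. Across the 28 coding members, Spearman's rho between this share and the mean level in CPM (counts scaled to 1000000 per library) was -0.79, given as a description, since members share sequence and libraries. The treatment of reads that match several genes is not given in the sources, so a low count of a copy such as Defa2, Defa20 or Defa33 (0 counts each) cannot be told apart from reads that were not assigned.

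**Figure D1:**
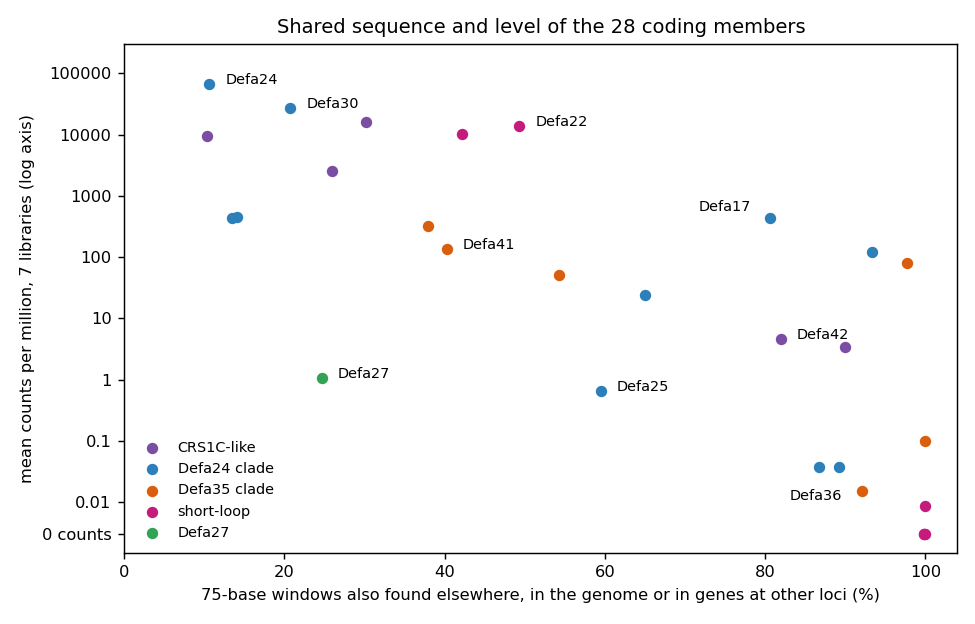
Mean level over the 7 libraries (CPM, log axis) of the 28 coding members against the share of their 75-base windows (%) that also occurs elsewhere, in the genome or in genes at other loci, with points coloured by clade. Members with few shared windows, such as Defa24 and Defa30, sit at the top left, and most members above 80% sit at the bottom right.

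Of the 45 members, 28 (20 coding, 8 pseudogenes) had enough counts to be tested. The other 17 had 0 counts in every library (9 members, which allows up to 3 counts in each) or 1 to 39 counts over all libraries together (8 members). The largest of these, Defa-ps10, had 34 counts in the PBS group and 5 in the TNF group.

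After TNF, 6 of the 28 tested members were higher and 10 were lower (edgeR, quasi-likelihood test, Benjamini-Hochberg adjusted p under 0.05 over all 14329 genes tested). That is 57.1% called, against 59.6% of all genes tested. By direction, 21.4% of members were higher, against 29.5% of all genes, and 35.7% were lower, against 30.1%. Levels of all TNF libraries were above all PBS libraries for 6 members (29.9% of all genes) and below them for 9 (30.9% of all genes), which together are 15 members that did not overlap (60.7% of all genes). Both counts of 6 include Defa-ps8, which passed the filter on low counts only through the TNF libraries. Without it, 5 of 27 tested members, all coding, were called higher. With all libraries, the share of members called was thus close to that of genes in general. Without PBS replicate 3, which was low in many members, 5 were higher and 13 lower, or 17.9% and 46.4% of members against 28.1% and 28.3% of all genes. The median log2 fold change was -0.63 over the tested members, -0.46 over the coding members and -1.10 over the pseudogenes, against 0.0017 over all genes tested. Fewer cells of a type and less RNA per cell cannot be told apart in bulk samples.

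The members that rose were Defa21 and Defa22 of the short-loop clade, Defa34, Defa35 and Defa41 of the Defa35 clade, and Defa-ps8, which passed the filter only through the TNF libraries. Those that fell were Defa26, Defa28 and Defa40 of the Defa24 clade, the CRS1C-like Defa38 and Defa39, Defa27, and the pseudogenes Defa-ps1, Defa-ps7, Defa-ps16 and Defa-ps18. All 4 tested members of the Defa35 clade and both of the short-loop clade had a positive log2 fold change. All 8 tested members of the Defa24 clade had a negative one, as had 4 of the 5 CRS1C-like members. The clades were drawn with the values known, so these counts are a description and carry no test.

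**Figure D2:**
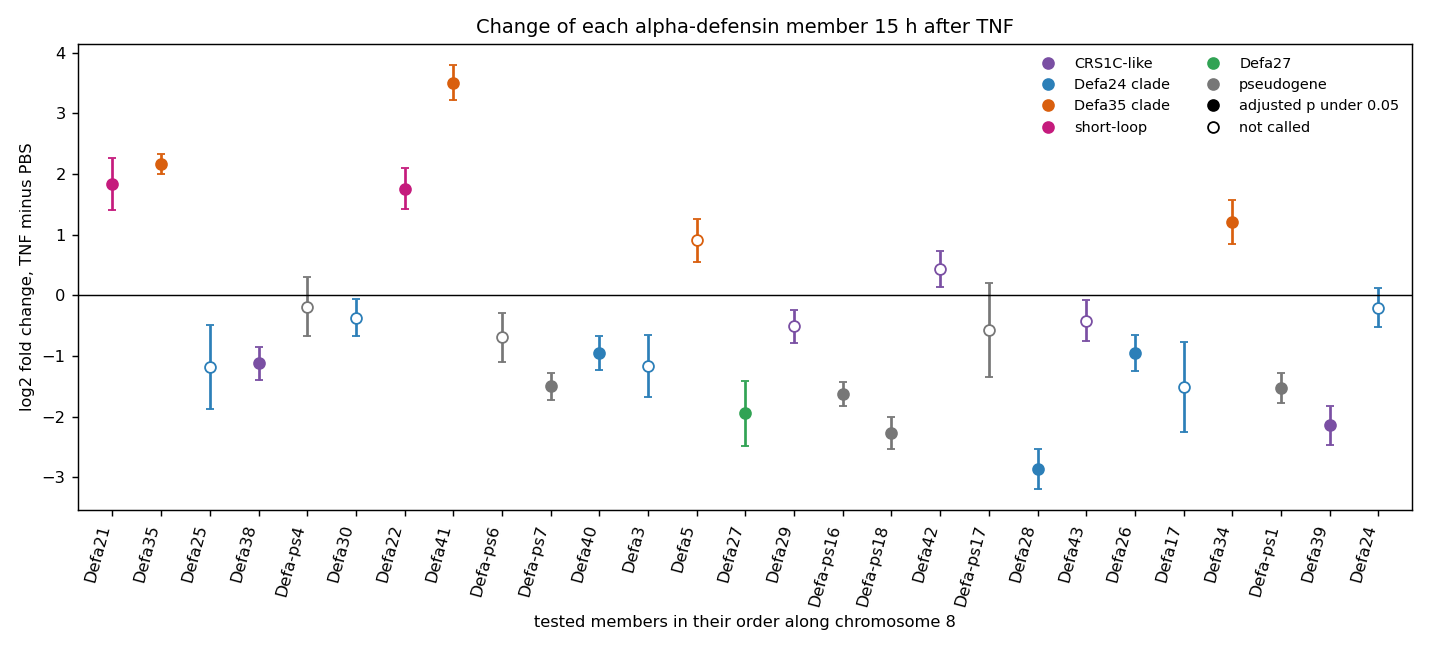
Fitted log2 fold change (TNF minus PBS) with its SE for 27 tested members in their order along chromosome 8, coloured by clade, with filled points for an adjusted p under 0.05. Points of the short-loop and Defa35 clades lie above 0 and points of the Defa24 clade below it. Defa-ps8, with 0 counts in every PBS library, is left out because its fold is only bounded.

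Defa24 (ENSMUSG00000064213, chr8:22224506-22225490, plus strand) was the most abundant member in every library. It held 91031, 73827 and 49517 CPM in the PBS libraries and 42878, 66468, 57714 and 81117 CPM in the TNF libraries. The groups overlapped, and the change missed the threshold (log2 fold change -0.20 ± 0.32 SE, edgeR adjusted p = 0.606). Ranked by counts per kb of exon among all genes, it stood at rank 1 in every library. Among the PBS libraries replicate 3 was the lowest for Defa24, as it was for most members.

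Defa30 (chr8:21609255-21625621, plus strand), the next in level, held 39736, 33155 and 19531 CPM after PBS and 14893, 24536, 23331 and 32794 CPM after TNF. These ranges overlapped too (log2 fold change -0.37 ± 0.31 SE, edgeR adjusted p = 0.328). Its rank per kb was 3 in all PBS libraries and 3 or 4 after TNF. The pseudogene Defa-ps4 shares 99 exon bases with Defa30 on the same strand, and it held 0.728 to 3.48 CPM.

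Both tested short-loop members, of 6 in the clade, rose, against 29.5% of all genes. Defa22 (ENSMUSG00000074443, chr8:21652290-21653265, plus strand) held 8190.0, 5851 and 3321 CPM after PBS and 12371, 19362, 19836 and 26848 CPM after TNF. Every TNF library was above every PBS library, and the fitted change was 3.39-fold (log2 fold change 1.76 ± 0.33 SE, edgeR adjusted p = 0.000465). Per kb, Defa22 went from rank 7 in each PBS library to rank 3 or 4 in the TNF libraries.

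Defa21 (ENSMUSG00000074447) held 6380.4, 4479 and 1657 CPM after PBS and 8878, 14859, 15084 and 20789.7 CPM after TNF. The ranges did not overlap, with a fitted change of 3.57-fold (log2 fold change 1.84 ± 0.43 SE, edgeR adjusted p = 0.0032). This call was lost when genes of low counts were kept in the fit (adjusted p = 0.0646). PBS replicate 3 stood low for Defa21 in particular. There, Defa21 held 0.499 counts for each count of Defa22, against 0.718 to 0.779 in the 6 other libraries. The other 4 short-loop members had 0 or 1 counts over all libraries, and between 99.8% and 100% of their windows occur elsewhere.

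In the Defa35 clade, 3 of 4 tested members rose (Defa34, Defa35 and Defa41), and Defa36 and Defa37, with 2 and 12 counts over all libraries, were not tested, against 29.5% of all genes higher. Defa35 (ENSMUSG00000061845, chr8:21555054-21556012, plus strand) held 130.5, 99.9 and 92.5 CPM after PBS and 402, 493, 439 and 600.0 CPM after TNF. The groups stood well apart, at 4.49-fold (log2 fold change 2.17 ± 0.16 SE, edgeR adjusted p = 1.23e-07), with the smallest SE among the tested members other than Defa-ps8. Its rank per kb moved from between 48 and 55 to between 20 and 22, and its rank by counts not divided by length from between 1123 and 1543 to between 129 and 189.

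Defa41 (ENSMUSG00000079116, chr8:21681585-21692570, plus strand), the variant with the additional cysteine codon, held 29.5, 17.3 and 13.1 CPM after PBS and 171, 241, 215 and 275 CPM after TNF. All TNF libraries were above all PBS libraries, at 11.4-fold (log2 fold change 3.51 ± 0.29 SE, edgeR adjusted p = 5.08e-06). Its rank per kb went from between 293 and 617 to between 38 and 47, and by counts alone from between 5138 and 7639 to between 457 and 812. Defa41 shares 32 exon bases with Defa31 on the same strand, and Defa31 had 5 counts over all libraries.

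Defa34 held 40.9, 25.9 and 20.5 CPM after PBS and 43.6, 57.6, 60.5 and 108 CPM after TNF (log2 fold change 1.21 ± 0.36 SE, edgeR adjusted p = 0.0206). The ranges did not overlap, but the lowest TNF library was close to the highest PBS library, and the call was lost without PBS replicate 2 (adjusted p = 0.0739), without PBS replicate 3 (adjusted p = 0.088) and without the filter (adjusted p = 0.0914). Defa5, most of whose windows occur in other members, held 34.0 to 78.0 CPM after PBS and 61.2 to 143 CPM after TNF and did not pass (0.91 ± 0.35 SE, edgeR adjusted p = 0.0587). With the counts of Defa5 and Defa34 summed, the change was 1.02 ± 0.35 SE on the log2 scale (edgeR adjusted p = 0.0371), and this call too was lost without PBS replicate 2 (adjusted p = 0.112) and without PBS replicate 3 (adjusted p = 0.127).

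Of the 5 CRS1C-like members, 2 fell (Defa38 and Defa39) and 3 did not pass, where 30.1% of all genes were lower. Defa38 (ENSMUSG00000061958, chr8:21584982-21586111, minus strand) held 29871, 24486 and 15619 CPM after PBS and 7444, 10688, 10494 and 14221 CPM after TNF. All TNF libraries were below all PBS libraries, by 2.18-fold (log2 fold change -1.12 ± 0.27 SE, edgeR adjusted p = 0.00289). Its rank per kb went from 4 to 6.

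Defa39 (ENSMUSG00000058618, chr8:22192531-22200234, minus strand) held 23726, 17069 and 9929 CPM after PBS and 2431, 3802, 3445 and 5656 CPM after TNF. It was 4.41-fold lower without overlap of the groups (log2 fold change -2.14 ± 0.32 SE, edgeR adjusted p = 7.81e-05), and its rank per kb went from 5 to between 9 and 11. Defa38 and Defa39 are 96.8% identical in coding sequence.

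Defa29, the next CRS1C-like member by level, held 4323, 2996 and 1958 CPM after PBS and 1427, 2084, 2135 and 3027 CPM after TNF. These ranges overlapped (-0.51 ± 0.28 SE on the log2 scale, edgeR adjusted p = 0.133). Defa42 and Defa43 stayed between 1.83 and 6.61 CPM, and their summed counts differed by 0.060 ± 0.22 SE on the log2 scale (edgeR adjusted p = 0.828).

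In the Defa24 clade, Defa26 held 882, 550.1 and 424 CPM after PBS and 216, 365, 261 and 438 CPM after TNF. It was called lower although TNF replicate 4 was above PBS replicate 3 (log2 fold change -0.95 ± 0.30 SE, edgeR adjusted p = 0.0221). Defa40, whose stretch between these codons differs from that of Defa26 at 1 of 29 codons, held 841, 504 and 428 CPM after PBS and 207, 334, 259 and 422 CPM after TNF. Its ranges did not overlap, by a narrow margin (-0.95 ± 0.28 SE, edgeR adjusted p = 0.0164). Both calls were lost without PBS replicate 1 (adjusted p = 0.0807 for Defa26 and 0.0576 for Defa40) and without the filter on low counts (0.113 and 0.0817).

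Defa28 (ENSMUSG00000074434, chr8:22072965-22073980, plus strand), the clade member with the shorter cysteine spacing, held 67.3, 43.1 and 33.4 CPM after PBS and 3.13, 7.13, 7.28 and 8.77 CPM after TNF. It was 7.30-fold lower (log2 fold change -2.87 ± 0.33 SE, edgeR adjusted p = 4.82e-05) and the groups were far apart. Its rank per kb fell from between 106 and 176 to between 1518 and 3966, and by counts alone from between 2571 and 4555 to between 8416 and 10753. Counts of Defa28, Defa25 and the near-identical Defa-ps18 were also summed, and the sum was lower by a similar amount (-2.49 ± 0.29 SE, edgeR adjusted p = 8.81e-05).

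Defa17 held 978, 935 and 168 CPM after PBS and 93.3, 204, 345 and 331 CPM after TNF. PBS replicate 3 lay within the TNF range, and the change missed the threshold (-1.51 ± 0.74 SE, edgeR adjusted p = 0.134). Without that library Defa17 was called lower (-1.98, adjusted p = 0.0307). Defa3, whose stretch between these codons is the same as that of Defa17, held 67.0 to 241 CPM and 42.6 to 97.9 CPM and did not pass either (-1.17 ± 0.51 SE, edgeR adjusted p = 0.0987). Their sum changed by -1.43 ± 0.68 SE on the log2 scale (adjusted p = 0.123). Defa27, the short precursor, held 2.10, 1.93 and 1.59 CPM after PBS and 0.168, 0.766, 0.535 and 0.458 CPM after TNF, which were separate ranges at low counts (-1.95 ± 0.54 SE, edgeR adjusted p = 0.00625).

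**Figure D3:**
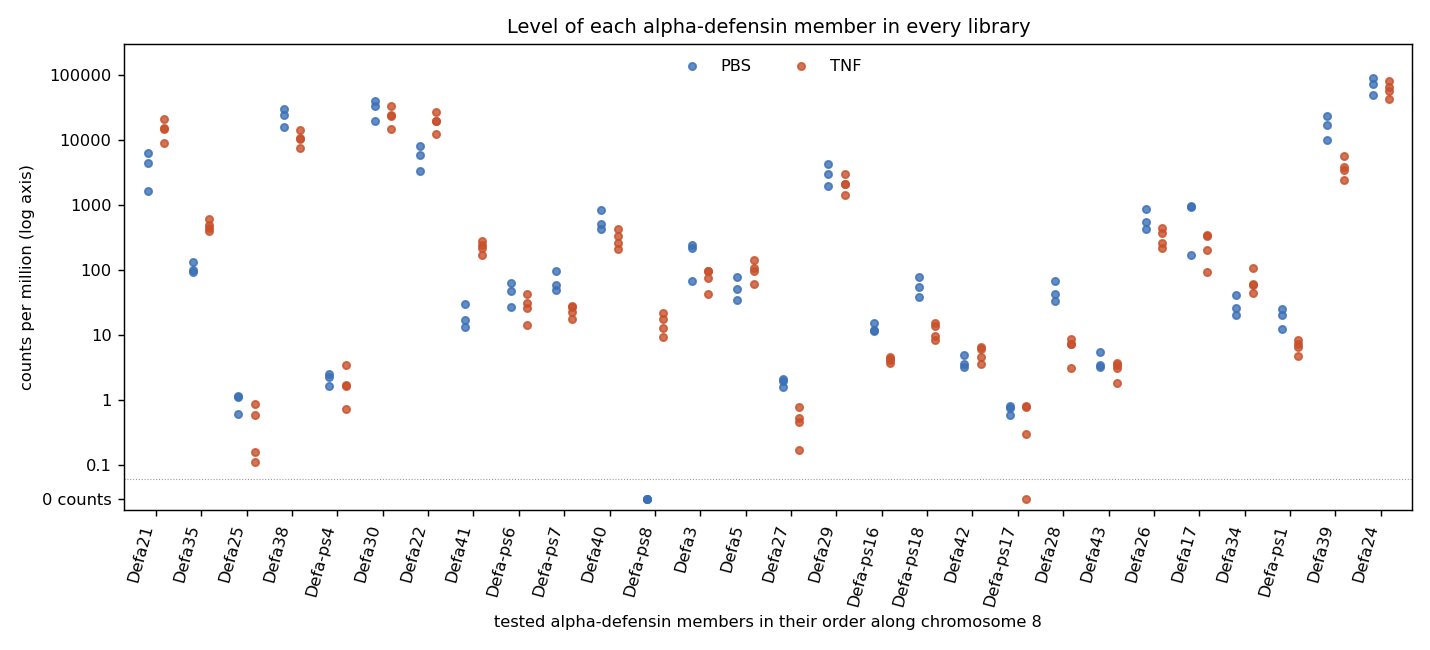
Level of the 28 tested members in every library (CPM, log axis, with 0 counts drawn below the dotted line), in their order along chromosome 8, PBS libraries in blue and TNF libraries in orange. Defa21, Defa22, Defa35 and Defa41 have all TNF points above all PBS points, Defa28, Defa38 and Defa39 have them below, and the points of Defa24 and Defa30 overlap.

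Of 8 tested pseudogenes, 4 fell and 1 rose, against 30.1% of all genes lower and 29.5% higher. The 1 that rose, Defa-ps8, passed the filter only through the TNF libraries. Defa-ps7 held 95.3, 59.0 and 48.8 CPM after PBS and 17.8, 26.6, 22.9 and 28.3 CPM after TNF (log2 fold change -1.50 ± 0.22 SE, edgeR adjusted p = 0.000163). Defa-ps18 held 78.3, 53.9 and 38.9 CPM against 8.45, 13.7, 9.75 and 15.4 CPM (-2.27 ± 0.26 SE, edgeR adjusted p = 2.87e-05). In both, the groups were separate.

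Defa-ps1 fell likewise, from 25.4, 19.95 and 12.2 CPM to 4.70, 7.31, 6.43 and 8.31 CPM (-1.52 ± 0.25 SE, edgeR adjusted p = 0.000141). Defa-ps16 fell from 15.1, 12.1 and 11.5 CPM to 4.25, 3.71, 4.18 and 4.58 CPM (-1.62 ± 0.20 SE, edgeR adjusted p = 7.7e-06). Neither overlapped between groups. Exons of Defa-ps1, Defa-ps7 and Defa-ps18 lie wholly within annotated long noncoding RNAs of the same strand, which are not in the count table. The pseudogenes together made up 0.131% ± 0.00988 of the alpha-defensin counts after PBS (SD, n = 3) and 0.0673% ± 0.00353 after TNF (SD, n = 4).

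Defa-ps8 (ENSMUSG00000094180, chr8:21760709-21762013, plus strand) had 0 counts in all PBS libraries and 167, 373, 240 and 273 counts in the TNF libraries, or 15.5 ± 5.55 CPM (SD, n = 4). Against a floor of 3 counts over the PBS group, which covers counting error only, it was at least 279-fold higher after TNF. It passed the filter on low counts only through the TNF group, so its call adds no support. The gene is an unprocessed pseudogene in GENCODE and protein coding in the RefSeq gene table. Its annotated transcript of 279 bases is printed 5′ to 3′, with its 7 in-frame cysteine codons in capitals. It was chosen because no other tested member had 0 counts in the whole PBS group.

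Defa-ps8: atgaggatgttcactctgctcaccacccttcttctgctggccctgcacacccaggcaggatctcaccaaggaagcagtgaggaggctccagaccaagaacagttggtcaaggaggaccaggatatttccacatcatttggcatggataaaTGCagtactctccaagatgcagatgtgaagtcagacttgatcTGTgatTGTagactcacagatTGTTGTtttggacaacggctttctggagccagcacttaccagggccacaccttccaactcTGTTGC

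Read from its first base, this sequence had 0 in-frame stops in 93 codons. Its cysteine codons are spaced differently from those of the members printed above. A gene outside the family, Gm15313 (chr8:22129087-22130394), carries all of these bases, with 3 more bases as the only difference. It also had 0 counts in every PBS library, and 180, 297, 196 and 271 counts in the TNF libraries, which was at least 250-fold higher on the same floor (160- to 176-fold without a PBS library). All 75-base windows of Defa-ps8 occur elsewhere, so which of the pair gave the reads cannot be told apart. Gm15313 was named after its values were seen.

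Although single members moved in opposite directions, the family as a whole took a share of all counts that overlapped between groups. It was 19.2%, 17.6% and 12.5% in the PBS libraries and 9.93%, 13.3%, 13.0% and 15.7% in the TNF libraries, or 16.4% ± 3.50 (SD, n = 3) and 13.0% ± 2.38 (SD, n = 4). The effective number of members (the exponential of the Shannon entropy of their shares) was 5.08, 4.89 and 4.57 after PBS and 4.96, 4.97, 5.18 and 5.19 after TNF. Defa24 held between 43.1% and 48.1% of the family counts in every library, and the 6 leading members of each library held between 96.2% and 97.2%.

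Within that share, the make-up changed by clade. CRS1C-like members held 27.3% ± 0.663 of the family counts after PBS and 12.03% ± 0.363 after TNF. Short-loop members held 6.05% ± 1.12 after PBS and 24.6% ± 1.36 after TNF, from 4.83% to 7.04% and from 23.2% to 26.1%. The Defa24 clade went from 66.4% ± 1.74 to 62.6% ± 1.39 and the Defa35 clade from 0.136% ± 0.0188 to 0.643% ± 0.0658 (all SD, n = 3 and 4). Pseudogenes and Defa27 hold the rest. Since all are shares of the same total, they are not independent of each other.

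**Figure D4:**
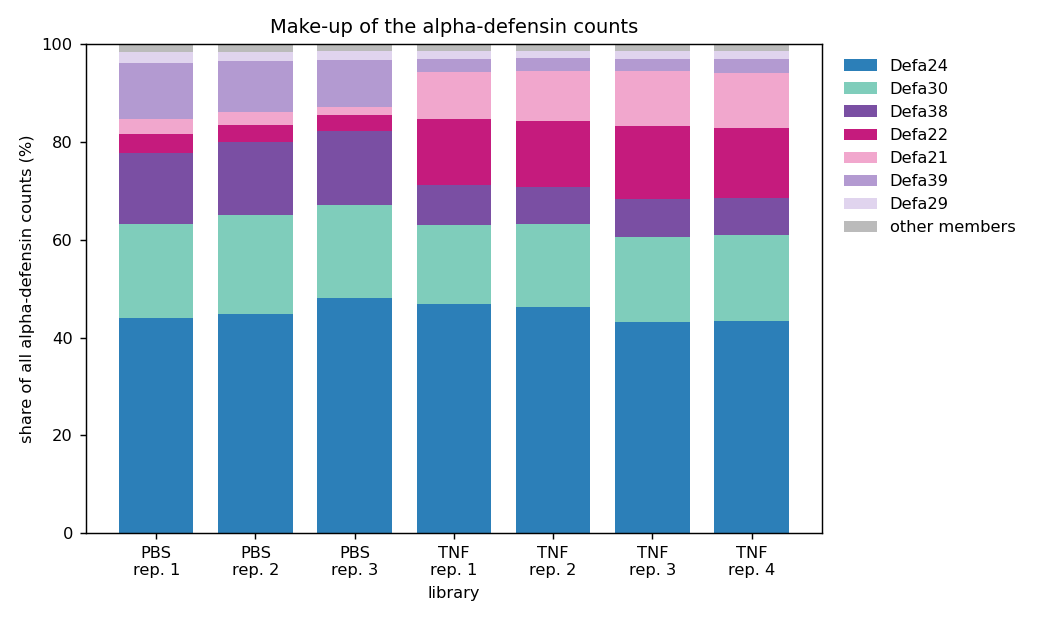
Share of all alpha-defensin counts (%) held by each of the 7 leading members and by the others together, with 1 bar per library. Defa24 takes between 43.1% and 48.1% of every bar, while Defa21 and Defa22 widen and Defa38 and Defa39 narrow in the 4 TNF libraries.

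Ratios within a library do not depend on scaling, and some were nearly constant within a group. Defa22 held between 0.334 and 0.345 counts for each count of Defa39 after PBS, and between 4.75 and 5.76 after TNF. The ratio of Defa21 to Defa38 was 0.106 to 0.214 after PBS and 1.19 to 1.46 after TNF. Defa41 against Defa28 went from between 0.392 and 0.438 to between 29.5 and 54.7. By contrast, the ratio of Defa24 to Defa30 ran from 2.23 to 2.54 after PBS and from 2.47 to 2.88 after TNF and overlapped. These pairs were picked after the values were seen.

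**Figure D5:**
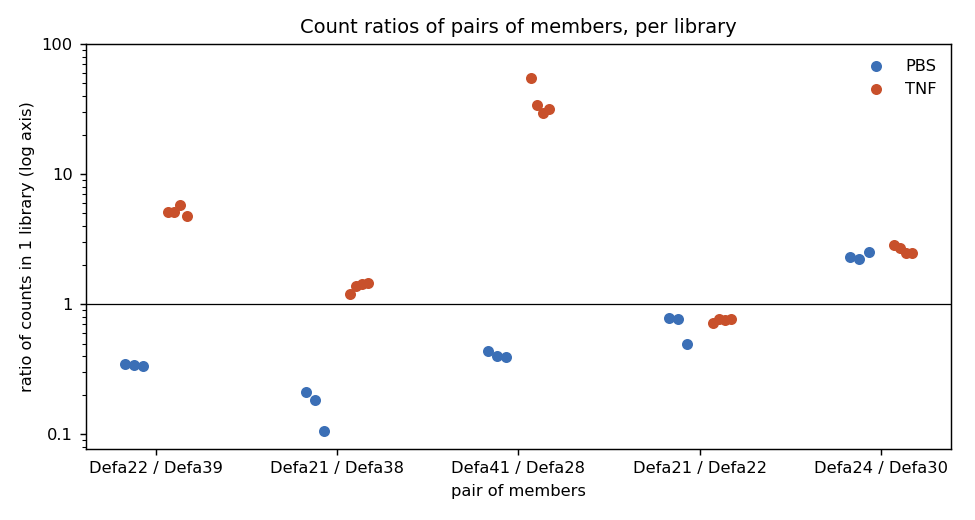
Ratio of the counts of pairs of members within a library (log axis), PBS libraries in blue and TNF libraries in orange, with a line at a ratio of 1. Defa22 over Defa39 and Defa21 over Defa38 lie below 1 in all PBS libraries and above 1 in all TNF libraries, and Defa24 over Defa30 overlaps between groups.

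Along the chromosome, changes did not run in one direction. Of 27 neighbouring pairs of tested members, 16 had the same sign. Spearman's rho between order and log2 fold change was -0.38 over 28 tested members, as a description. Defa30, Defa22 and Defa41 follow each other among the tested members with log2 fold changes of -0.37, 1.76 and 3.51, and Defa5 (0.91) lies between Defa3 (-1.17) and Defa27 (-1.95).

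Promoter sequence was available for 16 of the 45 members, all coding, from RefSeq on GRCm38.p6 (250 bases before to 50 after the annotated start). They are printed for Defa21, Defa41 and Defa38 because these are called members of 3 clades, of which Defa21 and Defa41 rose and Defa38 fell. Capitals mark TATAAA, and CTTTGAT on either strand (ATCAAAG where it lies on the other strand), a core of the TCF/LEF motif.

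Defa21 promoter, GRCm38.p6 chr8:21025295-21025594, plus strand: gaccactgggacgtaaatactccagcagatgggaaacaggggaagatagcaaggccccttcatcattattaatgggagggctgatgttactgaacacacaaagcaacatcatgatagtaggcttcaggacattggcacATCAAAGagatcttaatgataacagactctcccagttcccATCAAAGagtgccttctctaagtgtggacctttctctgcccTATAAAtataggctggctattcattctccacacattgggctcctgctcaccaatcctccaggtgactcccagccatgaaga
Defa41 promoter, GRCm38.p6 chr8:21201354-21201653, plus strand: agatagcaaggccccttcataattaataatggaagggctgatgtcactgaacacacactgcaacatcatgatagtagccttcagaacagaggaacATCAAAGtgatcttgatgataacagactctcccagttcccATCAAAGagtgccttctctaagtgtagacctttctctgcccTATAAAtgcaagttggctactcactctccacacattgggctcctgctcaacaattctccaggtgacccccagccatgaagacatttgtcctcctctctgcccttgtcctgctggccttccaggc
Defa38 promoter, GRCm38.p6 chr8:21096001-21096300, minus strand: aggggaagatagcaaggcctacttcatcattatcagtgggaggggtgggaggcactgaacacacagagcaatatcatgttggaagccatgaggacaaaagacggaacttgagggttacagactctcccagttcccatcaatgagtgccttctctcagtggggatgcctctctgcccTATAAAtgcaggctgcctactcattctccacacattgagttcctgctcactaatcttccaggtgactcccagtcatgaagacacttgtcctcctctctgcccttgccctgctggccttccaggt

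The promoter of Defa22 was identical to that of Defa21 over all 300 bases. Those of Defa2 and Defa20, Defa23 and Defa31, Defa36 and Defa37, and Defa42 and Defa43 were also identical in pairs. The shares of the 16 given here thus count copies as separate promoters. TATAAA was found in 15 of 16 member promoters (93.75%), against 13.6% of 32851 promoters of the same length, and it was not found in that of Defa28. CTTTGAT was found in 13 of 16 (81.25%), against 3.73% of all promoters, and was not found in those of Defa38, Defa42 and Defa43. In Defa21 and Defa22 it began at positions -112 and -72, and in Defa41 at -155 and -115, counted from the annotated start. Neither CTTTGAA (5.14% of all promoters) nor a narrow form of the NF-kB consensus, fixed at all but its middle bases (1.47%), was found in any of the 16. Other forms of that consensus were not searched for, so the absence of NF-kB motifs in general was not tested. Each motif was searched on both strands and no matches overlapped in these promoters. A match is a description of the letters and not evidence of binding. The promoters of Defa24 and Defa39 are not analysed here.

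Of 12 tested genes for defensin processing and other granule products, 5 were higher and 2 lower, against 29.5% and 30.1% of all genes. Mmp7, which cleaves the precursors, rose from 3862 ± 731 to 7113 ± 1309.7 CPM (log2 fold change 0.88 ± 0.21 SE, edgeR adjusted p = 0.00223). Lyz1, the lysozyme that defines PCs, held 96515 ± 17916 and 118731 ± 28082 CPM and did not pass (0.30 ± 0.32 SE, edgeR adjusted p = 0.444).

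Of 14 genes for PC fate and defensin transcription, 5 were higher and 5 lower, against the same shares of all genes. Tcf7l2, a TCF factor that binds beta-catenin, fell from 101 ± 4.81 to 59.0 ± 8.52 CPM (-0.77 ± 0.12 SE, edgeR adjusted p = 5.96e-05), whereas Ctnnb1, which encodes beta-catenin, rose from 634 ± 48.7 to 834 ± 40.1 CPM (0.40 ± 0.12 SE, edgeR adjusted p = 0.00905). Nod2, a sensor of bacterial peptidoglycan, rose from 1.96 ± 0.468 to 23.9 ± 2.28 CPM (3.61 ± 0.20 SE, edgeR adjusted p = 6.25e-09). Atoh1, which sets the secretory lineage, fell from 181 ± 36.0 to 53.3 ± 12.4 CPM (-1.77 ± 0.18 SE, edgeR adjusted p = 5.9e-06), and Gfi1, which acts after it, from 25.1 ± 5.81 to 9.001 ± 1.97 CPM (-1.48 ± 0.20 SE, edgeR adjusted p = 2.33e-05). Spdef, a factor of goblet cell and PC maturation, rose from 132 ± 15.8 to 356 ± 103.7 CPM (1.44 ± 0.20 SE, edgeR adjusted p = 6.24e-05). Lef1, at 1.57 ± 0.490 and 0.572 ± 0.211 CPM, was lower (edgeR adjusted p = 0.0284). Sox9, needed for PC formation, held 408 ± 78.7 and 519.7 ± 65.7 CPM and did not pass (edgeR adjusted p = 0.0567).

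Genes that mark the position along the intestine differed between the groups, the duodenal and jejunal ones mostly in one direction and the ileal ones in both. Of 6 tested duodenal and jejunal genes 5 were lower (30.1% of all genes), with a summed level of 178 to 216 CPM over the 8 listed genes after PBS and 33.5 to 45.7 CPM after TNF. Gata4, a transcription factor of the proximal intestine, fell from 62.7 ± 3.88 to 8.21 ± 1.76 CPM (-2.94 ± 0.16 SE, edgeR adjusted p = 3.68e-09). Of 4 tested ileal genes 3 were higher (29.5% of all genes) and 1 (Osr2) was lower, with a summed level over the 10 listed genes of 27.6 to 45.3 CPM and 68.7 to 75.8 CPM. Hoxb9, a homeobox gene of the distal gut, rose from 9.59 ± 1.96 to 44.6 ± 2.79 CPM (2.22 ± 0.15 SE, edgeR adjusted p = 3.3e-08). Most of the ileal sum came from Hoxb9, Hoxb8 and Osr2. Of the untested ileal genes, Fabp6 had 39 counts in the PBS group and 2 in the TNF group, Slc51a 27 and 0, Cubn 136 and 0, and Hoxa10 7 and 0, while Slc10a2 had 0 and 34 and Fgf15 2 and 5. The part of intestinal position in the changes of Defa21, Defa22, Defa38 and Defa39 was not tested.

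Markers of other cell types were mostly lower after TNF. Of the tested markers, 4 of 5 for enterocytes, 4 of 6 for goblet cells, 4 of 4 for tuft cells, 2 of 4 for enteroendocrine cells and 4 of 4 for stem cells were lower, and none was higher, against 30.1% of all genes lower and 29.5% higher. For enterocytes, the summed level was 320.5 to 458 CPM after PBS and 42.0 to 52.9 CPM after TNF. It was 1055 to 1698 and 157 to 423 CPM for tuft cells, and 2407 to 3533 and 958 to 1589 CPM for stem cells. For goblet cells it was 7287 to 13985 CPM and 6402 to 6926 CPM, and for enteroendocrine cells 9.86 to 62.7 CPM and 6.05 to 16.6 CPM, which overlapped. Among leukocyte markers, Cd3e had 0 counts and Ptprc was lower (16.4 ± 8.52 CPM, SD, n = 3, and 8.50 ± 2.90 CPM, SD, n = 4). S100a9 was at 0 counts in the PBS group and held 5.92 ± 1.99 CPM (SD, n = 4) with TNF, and it passed the filter only through the TNF libraries. The erythroid and stromal markers reached at most 0.053 and 0.392 CPM in sum. Of 6 PC markers outside the family, 1 was higher and 2 were lower (29.5% and 30.1% of all genes), with summed levels of 115106 to 173365 and 115375 to 202915 CPM. Mitochondrial mRNAs took 0.394% to 0.585% of counts after PBS and 0.204% to 0.317% after TNF. The part of these shifts in the changes of the members was not tested.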

How the data were processed

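Sorted Paneth cells of 3 PBS and 4 TNF mice gave 7 libraries of bulk RNA-seq. The authors deposited raw counts, whole numbers of reads per Ensembl gene, with 1 column per library. The submitters' processing notes name FastQC, Trimmomatic 0.39, STAR 2.7.10a and DESeq2 and the builds mm10 and mm39, with no role or order. For the counting program, annotation, strand use and treatment of multiply matching reads, nothing is given in the sources used here. Of 55414 identifiers, 98.8% were found in GENCODE M39 (GRCm39), from which symbols and coordinates were taken by identifier.

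The test was the robust quasi-likelihood test of edgeR 4.0.16 (R 4.3.3, two-sided), TNF against PBS without covariates, with TMM scaling and filterByExpr, which left 14329 genes. A gene was called at a Benjamini-Hochberg adjusted p under 0.05 over all of them. The scripts were tested on simulated data. CPM use the TMM-scaled library sizes, and SEs are the absolute log2 fold change over the square root of F. Folds against a group at 0 counts use a floor of 3 counts over the group, which covers counting error only. Values over the whole family carry no test. Near-identical members, which share at least 50% of 75-base windows, were also summed. Total counts ran from 15511455 to 19193721 per library.

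Every member could be named. Values per library are given for the 12 highest by mean CPM and for every called member. Other genes come from listed markers, pathway genes and neighbours. Of the listed markers, 1 is not reported here. The members and lists were chosen with earlier results of these data known. Alternatives were 3 other scalings, 2 other filters, the Wald test of DESeq2 1.42.0, a replicate block, a required 2-fold change, leaving out each library, and summed copies. No fold changes or p-values of the authors were used.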

Additional observations from a re-analysis of the deposited data

Results flagged for a closer look

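Among 62 values looked at in the 4 TNF libraries (levels and family shares of tested members, and measures of the whole family), 1 had a library far from the others. It was the share of Defa-ps8 in the alpha-defensin counts, at 0.0153% in TNF replicate 2, against 0.0102%, 0.0096% and 0.00955% in TNF replicates 1, 3 and 4. Chance sets about 1 in 20 such values apart, and its level in CPM was not set apart by the same measure. The PBS group, with 3 libraries, was too small to be examined in this way.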

How the results depend on the processing

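Under the alternatives, between 4 and 7 members were higher and between 8 and 15 lower. No count moved by more than 1.5 times. Over the same settings, the required 2-fold change left aside, 17.9% to 31.2% of all genes were higher and 19% to 32.2% lower. Of the 16 called members, 12 kept their call and direction in all 14 alternatives of the test, and Defa21, Defa26, Defa34 and Defa40 lost theirs in at least 1 (values in the report). Scaling by total counts alone shifted all genes to a median of -0.16 (log2) and called 15 members lower, or 53.6% of members against 32.2% of all genes, with Defa24 (-0.36, adjusted p = 0.0462), Defa30 (-0.52, adjusted p = 0.0241), Defa29, Defa3 and Defa-ps6 among them, and Defa5 higher. The DESeq2 Wald test called 6 higher and 11 lower, or 19.4% and 35.5% of members against 22.8% and 24% of all genes. A required 2-fold change left 6 and 8, and the share of all genes under that rule was not counted. Summing copies gave 6 higher and 9 lower of 22, or 27.3% and 40.9%, against 29.5% and 30.1% of all genes.

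Defa5 was called higher without PBS replicate 1 (1.26, adjusted p = 0.0168) and without TNF replicate 1 (1.09, 0.0259), and Defa29 lower without PBS replicate 3 (-0.76, 0.0202) and without TNF replicate 4 (-0.72, 0.0354). Defa3 was called lower without PBS replicate 3 (-1.56, 0.005). Signs turned only for changes near 0: leaving out a library gave -0.41 to 0.012 for Defa24 (turned without PBS replicate 1), -0.66 to 0.078 for Defa-ps4 (turned without TNF replicate 1), and -0.079 to 0.30 for the sum of Defa42 and Defa43 (turned without PBS replicate 2, PBS replicate 3 and TNF replicate 2). Leaving out a library, the family share differed by -5.40 (without PBS replicate 3) to -2.04 percentage points (without PBS replicate 1), against -3.44 with all libraries, and the effective number by 0.0882 to 0.346 (the same libraries), against 0.228. The lower bound for Defa-ps8 was 179- to 196-fold without a PBS library. With counts per kb the share differed by -5.80 points.

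Between libraries of the same replicate number, correlations were -0.40, -0.05 and -0.23. With so few pairs, and with values centred within each group, they cannot decide whether the numbers pair the samples. With the replicate block, 6 members were higher and 10 lower, as without it, against 24.8% and 25% of all genes. Near-identical copies and unknown read assignment limit what the counts of single members can show. Ranked by counts not divided by length, a setting chosen after the data were seen, Defa24 stood at rank 2 in every library, Defa22 went from between 8 and 11 to between 5 and 6, and Defa39 from 6 to between 13 and 17. Scarcer members stood far lower in that order than per kb, as given for Defa28, Defa35 and Defa41 in the report.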

Other observations

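The stretch of chromosome 8 from the first to the last member also holds 93 annotated genes outside the family, of which 62 are in the count table. None reached a mean of 10 CPM, and the highest, Gm15313, had 7.97 CPM. Of the 9 that could be tested, Gm15313 alone was called, against 59.6% of all genes tested, and it passed the filter only through the TNF libraries. All 7 beta-defensin (Defb) genes of that stretch, which code for AMPs of other epithelia, had 0 counts in every library. The small nucleolar RNA Gm24568, which lies within Defa38 on the same strand, did not pass (log2 fold change -1.69 ± 0.72 SE, edgeR adjusted p = 0.0569).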
